A study of Mus musculus with 11 samples.

Results

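The Hox genes of the Hoxa, Hoxb, Hoxc and Hoxd clusters were followed through bone marrow stem cells and myeloid progenitors of the mouse. Members were all rows of the count table whose symbol is Hox followed by a cluster letter and a paralogue number, which gave 39 of the 54347 genes, 11 of Hoxa, 10 of Hoxb, 9 of Hoxc and 9 of Hoxd. The samples were long-term haematopoietic stem cells (LT-HSCs) that do (EMCN+) or do not (EMCN-) carry the sialomucin endomucin on their surface, and granulocyte-monocyte progenitors (GMPs), sorted as a more differentiated population. All cells came from hind-leg bone marrow of 4 female C57BL/6NTac mice from Taconic, whose age is not given in the sources used here, with no treatment named and with lineage-positive cells depleted before the sort. LT-HSCs were gated as CD150+CD48-LSK, where LSK stands for lineage-negative cells with Sca-1 and c-Kit, and "long-term" is the name of that gate, since no transplant readout is part of these libraries. Libraries are numbered by mouse, 4 from EMCN+ LT-HSCs, 3 from the EMCN- fraction and 4 from GMPs, and the submitters removed the EMCN- library of mouse 3 for poor quality.

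Hox genes encode homeodomain transcription factors and lie in clusters whose gene order, from the low-numbered to the high-numbered paralogues, follows the order of their activation along the body axis of the embryo. Genes with the same number in different clusters are paralogues and have similar homeodomains. In blood, Hoxa and Hoxb genes are known to be active in stem and early progenitor cells and to be switched off during maturation, HOXA9 and its partner MEIS1 are known drivers of leukaemia, and HOXB4 is known to expand stem cells when overexpressed.

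On GRCm38 the Hoxa cluster lies on chromosome 6 from 52155590 to 52260880, Hoxb on chromosome 11 from 96194316 to 96368256, Hoxc on chromosome 15 from 102921103 to 103036852 and Hoxd on chromosome 2 from 74668310 to 74765142. The promoters of Hoxa9, Hoxa10 and Hoxb4 are shown because these genes mark the range of the results: Hoxa9 was high in all 3 populations, Hoxa10 nearly disappeared in GMPs, and Hoxb4 was the best kept gene of its cluster there. Each sequence holds the 250 bases before a transcription start in RefSeq on GRCm38.p6, written 5′ to 3′ on the gene's strand, which is the minus strand for Hoxa9 and Hoxa10 and the plus strand for Hoxb4. Capitals mark matches on either strand to 5 motifs that were searched: TGATTNAT, a joint HOX and PBX motif, TGACAG, a MEIS motif, TATAAA, found at many core promoters, GGGCGG, the motif of SP1, and CCAAT, the motif of NF-Y. No motif in the list contains another.
Hoxa9, chr6:52227371-52227620: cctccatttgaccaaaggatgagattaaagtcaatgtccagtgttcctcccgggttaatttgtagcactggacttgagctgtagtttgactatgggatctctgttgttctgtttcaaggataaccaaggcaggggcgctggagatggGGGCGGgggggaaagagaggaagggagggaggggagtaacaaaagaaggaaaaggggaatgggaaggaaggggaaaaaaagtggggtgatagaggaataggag
Hoxa10, start nearer the coding exons, chr6:52234940-52235189: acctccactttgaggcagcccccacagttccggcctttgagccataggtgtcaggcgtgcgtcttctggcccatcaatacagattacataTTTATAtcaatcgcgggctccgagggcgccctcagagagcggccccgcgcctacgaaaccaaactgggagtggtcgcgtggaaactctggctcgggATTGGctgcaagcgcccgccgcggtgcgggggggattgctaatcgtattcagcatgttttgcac
Hoxb4, chr11:96318017-96318266: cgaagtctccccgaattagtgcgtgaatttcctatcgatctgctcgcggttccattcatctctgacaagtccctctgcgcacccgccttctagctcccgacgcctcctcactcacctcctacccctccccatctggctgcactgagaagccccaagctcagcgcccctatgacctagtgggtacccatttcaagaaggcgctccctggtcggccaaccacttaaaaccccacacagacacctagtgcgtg

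The Hoxa9 window held 1 GGGCGG, the Hoxa10 window 1 TATAAA and 1 CCAAT, both on the opposite strand, and the Hoxb4 window none of the 5 motifs. The Hoxa10 window had 20 CpG dinucleotides, the Hoxb4 window 14 and the Hoxa9 window 3. At the other Hoxa10 start, the window chr6:52240855-52241104 had 7 CpG and a GGGCGG, without TATAAA or CCAAT, so the values for Hoxa10 depend on the start chosen. The set of RefSeq promoters used here held 22 of the 39 genes, with 24 promoters, and their median was 12.5 CpG, against 6.0 over all 32851 promoters. Hoxa4, Hoxb2, Hoxb3, Hoxb5, Hoxb6 and Hoxc6 were among the genes without a promoter in it. The windows of Hoxa3 and Hoxc4 lay wholly in exons on the same strand. CCAAT was in 58.3% of the 24 Hox promoters and 33.8% of all, GGGCGG in 41.7% and 32.7%, TATAAA in 16.7% and 12.4%, TGACAG in 8.33% and 15.9%, and TGATTNAT in 8.33% and 2.82%. A match is a description of the letters and no binding was measured.

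The EMCN- libraries were the shallowest on average, with 4.87 ± 1.09 M estimated counts (mean ± SD, n = 3) against 7.60 ± 2.77 M for EMCN+ (n = 4) and 7.87 ± 1.39 M for GMPs (n = 4), in a range of 3.63 M to 11.1 M. Levels are given as CPM, a gene’s counts scaled to library size with TMM factors, where a library without a count may still hold up to 0.209 to 0.703 CPM, the worth of 3 counts. Markers went with the labels: the 8 LT-HSC markers summed to 1027 to 1217 CPM in EMCN+ LT-HSCs, 735 to 837 CPM in EMCN- LT-HSCs and 13.5 to 17.3 CPM in GMPs, and the 8 GMP markers to at most 30.9 CPM in LT-HSCs and 15270 to 18598 CPM in GMPs. Emcn itself was at 24.9 to 28.0, 12.7 to 16.2 and 0 to 1.36 CPM in the 3 populations, and the difference between the fractions did not pass the test (log2 difference 0.87 ± 0.27, adjusted p = 0.110, edgeR quasi-likelihood test). The share of mitochondrial ribosomal RNA was also higher in GMPs, at 27.6 ± 1.28%, than in the fractions, at 18.0 ± 4.06% (EMCN+) and 18.2 ± 0.762% (EMCN-), and its part in the differences from GMPs was not tested.

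Hox expression was carried by the Hoxa cluster and, at a lower level, by Hoxb. Over all libraries Hoxa genes had 6983 counts, Hoxb genes 1795, Hoxc genes 139 and Hoxd genes 10. A count above 0 in any library was found for 10 of 11 Hoxa, 10 of 10 Hoxb, 6 of 9 Hoxc and 5 of 9 Hoxd genes. The 8 genes at 0 in all 11 libraries were Hoxa13, Hoxc11, Hoxc12, Hoxc13, Hoxd1, Hoxd3, Hoxd9 and Hoxd13, 5 of them from paralogues 11 to 13, the group that acts at the posterior end of the embryo. A gene at 0 was not detectable at this depth, which does not show that it is off.

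**Figure D1:**
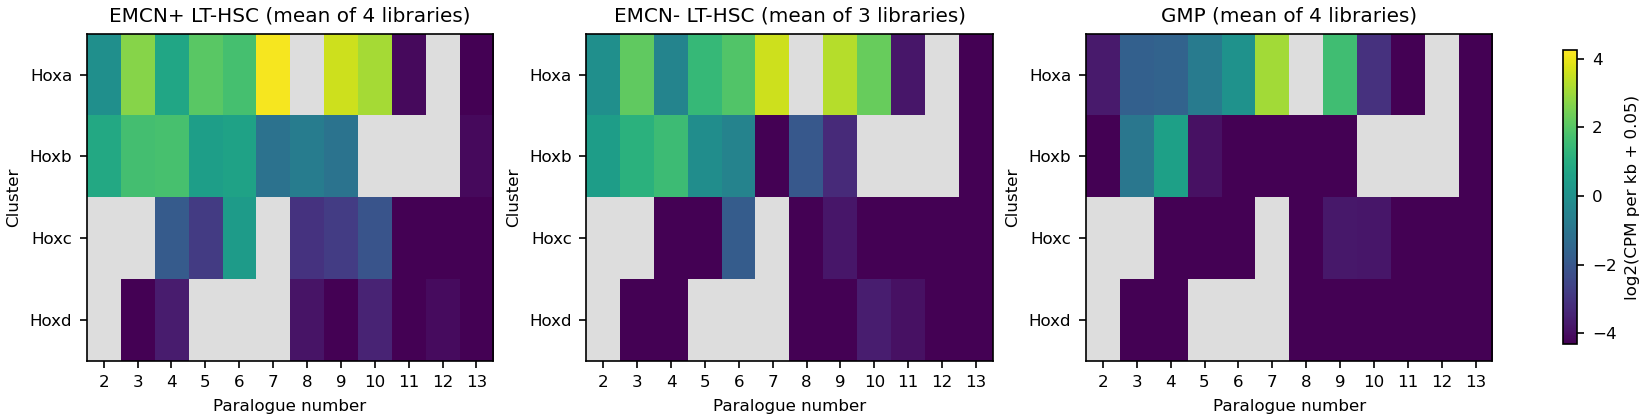
Mean level of the Hox genes of paralogues 2 to 13 by cluster (rows) and paralogue number (columns) in the 3 populations, as log2(CPM per kb + 0.05) with the length of the longest transcript. Grey cells are positions with no gene in the table. Signal fills Hoxa from paralogue 2 to 10 and Hoxb from 2 to 6 in LT-HSCs, and is highest at Hoxa7, Hoxa9 and Hoxb4 in GMPs.

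Among the 15 genes that passed the low-count filter were 8 of Hoxa (Hoxa2 to Hoxa7, Hoxa9 and Hoxa10), 6 of Hoxb (Hoxb2 to Hoxb6 and Hoxb8), Hoxc6, and none of Hoxd. A gene could pass by its level in LT-HSCs alone, so the 15 are not a sample of all members. Of the other 24, the 16 with any count held from 1 to 39 counts over the 11 libraries. The highest were Hoxb9 with 39 counts, 37 of them in EMCN+ LT-HSCs, Hoxb7 with 17, all in EMCN+ LT-HSCs, and Hoxc4 with 15, all in EMCN+ LT-HSCs. The EMCN+ libraries were deeper on average, so counts of detected genes, 30 in EMCN+ LT-HSCs, 21 in EMCN- LT-HSCs and 14 in GMPs, are not levels.

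Per kilobase of transcript, Hoxa7 was the highest Hox gene in every population. It stood at 17.3 ± 2.9 CPM per kb in EMCN+ LT-HSCs, 12.0 ± 0.840 in EMCN- LT-HSCs and 8.20 ± 1.66 in GMPs, followed in each by Hoxa9 with 12.0 ± 1.34, 9.80 ± 1.66 and 3.00 ± 0.421 CPM per kb (SD, n = 4, 3 and 4). Rank 3 was held by Hoxa10 in both LT-HSC fractions, with 8.50 ± 1.23 and 4.76 ± 0.655 CPM per kb, and by Hoxb4 in GMPs, with 1.42 ± 0.350. The libraries of Hoxa7 and Hoxa9 overlapped in both LT-HSC fractions, as did those of Hoxa10 and Hoxa3 (6.37 ± 0.964 and 4.44 ± 0.684 CPM per kb). In GMPs Hoxa7, at 6.50 to 10.3 CPM per kb, lay clear of Hoxa9, at 2.68 to 3.61. With the length of all exons together, Hoxa3 moved from rank 4 to rank 7 in both LT-HSC fractions, since its exons cover 6014 bases and its longest transcript 2591, and Hoxa10 from 3 to 4 in EMCN- LT-HSCs.

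Summed over all 39 genes, the level was 165 ± 19.9 CPM in EMCN+ LT-HSCs (147 to 187), 114 ± 7.61 CPM in EMCN- LT-HSCs (106 to 120) and 35.0 ± 2.77 CPM in GMPs (31.6 to 37.5). The 3 ranges did not overlap. These are bulk samples, in which fewer cells with a transcript and less of it per cell cannot be told apart.

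The 2 leading genes took a larger part of this pool in GMPs. Hoxa7 and Hoxa9 together made 44.8 ± 3.99% of the summed CPM in EMCN+ LT-HSCs, 48.8 ± 3.27% in EMCN- LT-HSCs and 75.0 ± 4.64% in GMPs. The Hoxa cluster made 77.2 ± 2.15%, 79.5 ± 1.44% and 84.6 ± 4.66% and the Hoxb cluster 20.6 ± 2.83%, 20.04 ± 1.63% and 15.1 ± 4.59%, with overlapping libraries. The fractions did not overlap in the share of the Hoxc cluster, at 1.66 to 2.79% in EMCN+ and 0.144 to 0.535% in EMCN- LT-HSCs, nor in that of paralogue group 10, which is nearly all Hoxa10, at 12.4 to 16.6% and 8.84 to 11.8%. Paralogue group 9 was just higher in the EMCN- libraries, at 25.60 to 31.5% against 23.1 to 25.56%. Shares of one pool are tied to each other, so a larger share of one gene does not mean a higher level.

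**Figure D2:**
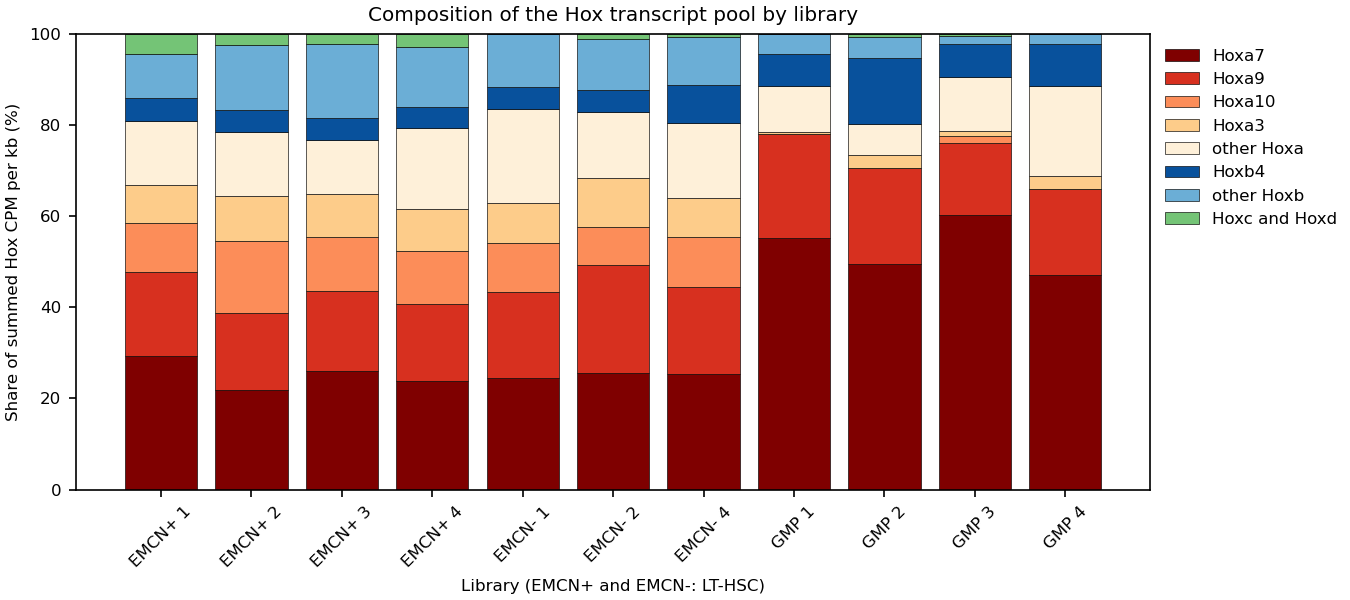
Share (%) of the summed Hox CPM per kb taken by 5 single genes and 3 groups of genes in each of the 11 libraries. Hoxa7 takes 21.8 to 29.2% in EMCN+ LT-HSCs, 24.5 to 25.6% in EMCN- LT-HSCs and 47.1 to 60.3% in GMPs, and Hoxa10 is visible in the LT-HSC libraries and, among GMPs, in GMP 3.

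By paralogue number, the anterior genes 1 to 3 made 18.0 ± 2.42% and 18.9 ± 2.86% of the summed CPM per kb in EMCN+ and EMCN- LT-HSCs and 5.41 ± 1.91% in GMPs. Paralogues 4 to 8 made 51.0 ± 3.59%, 50.2 ± 3.65% and 74.2 ± 4.06%, and paralogues 9 to 13 made 31.0 ± 1.66%, 30.9 ± 1.38% and 20.3 ± 2.39%. The order of the 3 blocks was the same in all populations, and GMP libraries lay outside the LT-HSC range for each block. Per kb, Hoxa7 stood at 1.08 to 1.58 times Hoxa9 in the 7 LT-HSC libraries and at 2.34 to 3.85 times in the 4 GMP libraries.

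The comparison of LT-HSCs with GMPs asked how the genes differ between stem cells and a committed progenitor. In this comparison 62.5% of all genes tested were called and 32.5% were called higher. All 15 tested Hox genes were higher in LT-HSCs and none lower (edgeR quasi-likelihood test, Benjamini-Hochberg over 14915 genes, threshold 0.05), with a median log2 difference of 4.35 against 0.03 over all genes, and 14 of them were called with a difference above 1, which 19.6% of all genes were. Since most of them passed the filter through their LT-HSC level, this count is a description. Of the 15, 12 had every LT-HSC library above every GMP library, which 25.0% of all genes had. The 2 fractions were set against the same GMP libraries, so their results share those samples: 15 were higher in EMCN+ LT-HSCs, where 31.9% of all genes were, and 14 in EMCN- LT-HSCs, where 28.3% were.

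**Figure D3:**
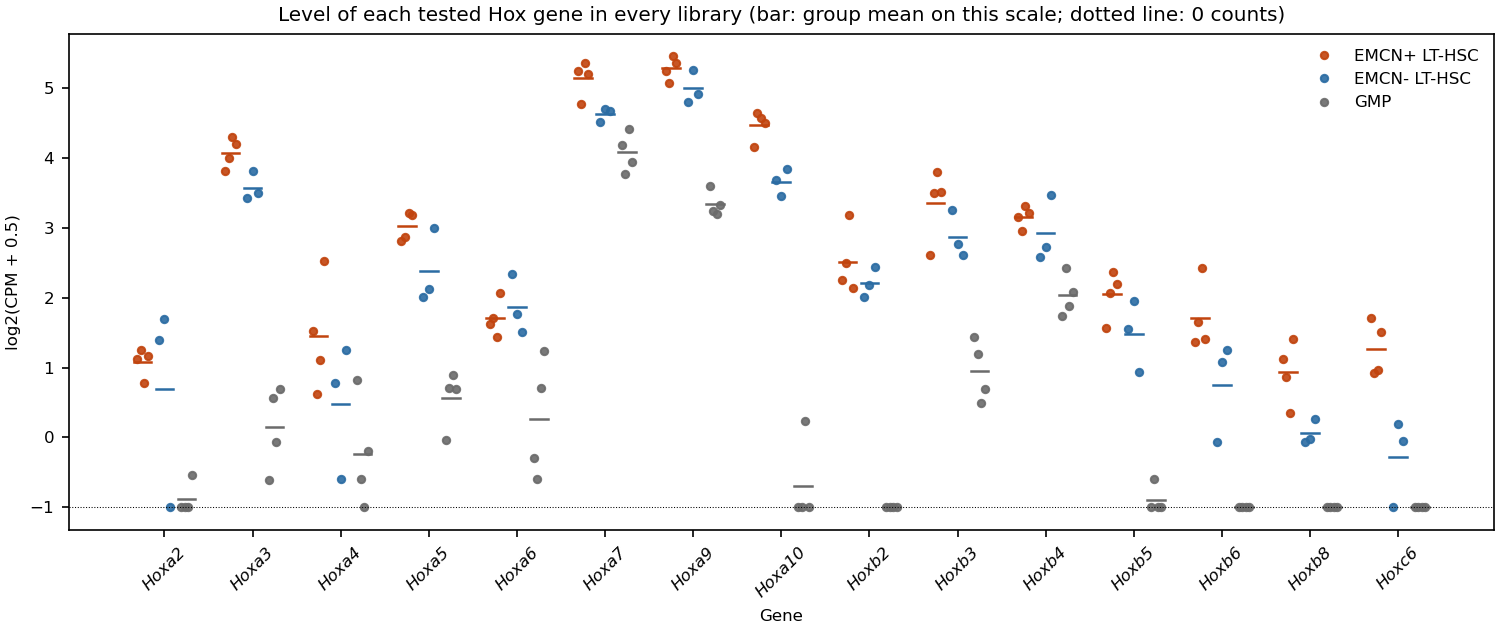
Level of each of the 15 tested Hox genes in every library, as log2(CPM + 0.5), with EMCN+ LT-HSCs in orange, EMCN- LT-HSCs in blue and GMPs in grey. Each dot is a library and each short bar the group mean on this scale. Hoxa7 and Hoxa9 stay well above 0 in GMPs, while Hoxb2, Hoxb6, Hoxb8 and Hoxc6 lie on the line of 0 counts in all 4.

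Hoxa7 and Hoxa9, central and posterior members of the Hoxa cluster, were the genes that GMPs retained at the highest level. Hoxa7 was at 37.3, 26.8, 40.4 and 36.2 CPM in EMCN+ libraries 1 to 4, at 22.4, 25.6 and 25.1 CPM in EMCN- libraries 1, 2 and 4, and at 17.6, 13.2, 20.9 and 14.9 CPM in GMP libraries 1 to 4. All LT-HSC libraries were above all GMP libraries, the nearest being EMCN- 1 and GMP 3. The log2 difference of Hoxa7 was 0.86 ± 0.15 (adjusted p = 4.05e-05, edgeR), the smallest of the 15. Hoxa9 was at 37.4, 33.2, 43.3 and 40.3 CPM in EMCN+ LT-HSCs, at 27.4, 37.7 and 29.7 CPM in EMCN- LT-HSCs, and at 11.7, 8.96, 8.63 and 9.50 CPM in GMPs. The populations were well separated for this gene, with a log2 difference of 1.86 ± 0.15 (adjusted p = 4.95e-10, edgeR). For Hoxa7, 20.4% of the exonic bases are also covered by the antisense gene Hoxaas3, and the strand setting of the counting is not given in the sources used here.

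Hoxa10, the neighbour of Hoxa9 on its posterior side, was at 17.3, 24.5, 23.2 and 22.2 CPM in EMCN+ LT-HSCs, at 12.4, 10.5 and 13.8 CPM in EMCN- LT-HSCs, and at 0, 0, 0.682 and 0 CPM in GMPs. Hoxa10 was thus present in all LT-HSC libraries and nearly absent in GMPs, where its 3 counts all came from GMP 3. The ratio of LT-HSC to GMP levels was 141, with an exact 95% counting interval of 48.0 to 683, which covers counting error only. The fitted log2 difference was 6.79 ± 0.46 (adjusted p = 5.48e-11, edgeR) and 9.97 without GMP 3, where no count was left in GMPs. Hoxa11, the next gene in the cluster, had 2 counts in all, and Hoxa13 none, so Hoxa10 was the last gene along the cluster with more than 2 counts.

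Of the Hoxa genes before Hoxa7 in the cluster, Hoxa3 and Hoxa5 had the highest CPM in LT-HSCs. Per kb, Hoxa6 (3.74 ± 1.33) was above Hoxa5 (2.64 ± 1.18) in EMCN- LT-HSCs. With the length of all exons together, Hoxa6 was above Hoxa3 in EMCN+ (3.22 against 2.74) and EMCN- LT-HSCs (3.74 against 1.91). Hoxa3 was at 13.5, 15.4, 19.1 and 17.9 CPM in EMCN+ LT-HSCs, 10.2, 13.5 and 10.8 CPM in EMCN- LT-HSCs, and 0.157, 0.977, 0.454 and 1.12 CPM in GMPs. Its groups were far apart, with a log2 difference of 4.35 ± 0.33 (adjusted p = 2.57e-10, edgeR), although 25.4% of its exonic bases overlap antisense genes. Hoxa5 was at 6.52, 6.81, 8.77 and 8.57 CPM, at 3.51, 3.86 and 7.50 CPM, and at 0.472, 1.14, 1.36 and 1.12 CPM in the same order. EMCN- 4 was the high library of its fraction for Hoxa5, and the log2 difference from GMPs was 2.63 ± 0.37 (adjusted p = 2.67e-06, edgeR).

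Hoxa2, Hoxa4 and Hoxa6 were lower in CPM. The longest transcript of Hoxa6 has only 874 bases, and per kb this gene was at 3.22 ± 0.723 in EMCN+ and 3.74 ± 1.33 in EMCN- LT-HSCs. Hoxa2 was at 1.68, 1.88, 1.22 and 1.75 CPM in EMCN+ LT-HSCs, 2.13, 2.74 and 0 CPM in EMCN- LT-HSCs, and 0, 0, 0 and 0.186 CPM in GMPs, a ratio of 38.0 with an exact 95% counting interval of 6.65 to 1516. Its EMCN- library 4 stood apart at 0, where 3 counts would have been 0.703 CPM. Hoxa6 was at 2.57, 2.78, 2.22 and 3.70 CPM, at 4.57, 2.9 and 2.34 CPM, and at 0.315, 0.163, 1.14 and 1.86 CPM, with a log2 difference from GMPs of 1.82 ± 0.55 (adjusted p = 0.00671, edgeR). GMP 3 and GMP 4 were higher than the other GMP libraries for Hoxa6, without reaching the LT-HSC range. Hoxa4 was at 2.37, 1.04, 1.67 and 5.26 CPM, at 1.22, 0.161 and 1.87 CPM, and at 1.26, 0.163, 0 and 0.372 CPM. The groups of Hoxa4 overlapped, EMCN+ 4 was its highest library, and the log2 difference of 1.82 ± 0.78 only just passed (adjusted p = 0.0487, edgeR). That call was lost in 11 of 21 alternative analyses, among them limma-voom (adjusted p = 0.115), over a range of 0.00486 to 0.131. Of these 11, 8 left out 1 library, namely EMCN+ 1, 3 or 4, EMCN- 1 or 4, or GMP 2, 3 or 4, with adjusted p from 0.0535 to 0.131.

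In the Hoxb cluster, Hoxb4 and Hoxb3 were the genes that GMPs kept. Hoxb4 was at 8.40, 7.23, 9.44 and 8.76 CPM in EMCN+ LT-HSCs, 5.49, 6.12 and 10.5 CPM in EMCN- LT-HSCs, and 2.83, 4.89, 3.18 and 3.72 CPM in GMPs. The LT-HSC and GMP libraries did not overlap, and the log2 difference of 1.11 ± 0.26 (adjusted p = 9.18e-04, edgeR) was the second smallest of the 15 after that of Hoxa7. Hoxb3 was at 5.63, 10.8, 13.4 and 10.9 CPM, at 9.0, 6.28 and 5.62 CPM, and at 2.20, 1.79, 0.909 and 1.12 CPM, a log2 difference of 2.48 ± 0.33 (adjusted p = 1.37e-06, edgeR). EMCN+ 1 was low for Hoxb3 and at the level of the lowest EMCN- library. More than with any other Hox gene tested, the exons of Hoxb3 overlap an antisense gene, with 52.9% of their bases inside Hoxb3os, which was itself at 1.99 ± 0.341, 2.24 ± 0.899 and 0.463 ± 0.643 CPM in the 3 populations (log2 difference of LT-HSCs from GMPs 2.25 ± 0.73, adjusted p = 0.0106, edgeR), so reads of the pair may not have been told apart.

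The remaining Hoxb genes reached the floor in GMPs. Hoxb2, which lies next to Hoxb3 and has 27.3% of its exonic bases inside Hoxb3os, was at 4.25, 5.14, 8.55 and 3.89 CPM in EMCN+ LT-HSCs and 3.51, 4.03 and 4.92 CPM in EMCN- LT-HSCs and had no count in any GMP library. Its level was at least 37.7-fold higher in LT-HSCs, reckoned against 3 counts over the GMP group. Hoxb5 was at 2.47, 3.68, 4.66 and 4.09 CPM and at 2.44, 3.38 and 1.41 CPM, with a single GMP count, in GMP 2 (ratio 73.6, exact 95% counting interval 13.04 to 2921). Hoxb6 was at 2.07, 2.64, 4.89 and 2.14 CPM and at 0.457, 1.61 and 1.87 CPM, and was at least 18.0-fold higher than in GMPs. Hoxb8, a gene used to immortalise myeloid progenitors when overexpressed, was at 1.68, 1.32, 0.777 and 2.14 CPM and at 0.457, 0.483 and 0.703 CPM, and was at least 8.40-fold higher. All 4 GMP libraries lacked Hoxb6 and Hoxb8, and of the 10 Hoxb genes only Hoxb3, Hoxb4 and Hoxb5 had any GMP count.

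Hoxc6 was the single Hoxc gene past the filter. It was at 2.77, 1.39, 1.44 and 2.34 CPM in EMCN+ LT-HSCs, 0, 0.644 and 0.468 CPM in EMCN- LT-HSCs, and 0 CPM in all GMP libraries. In LT-HSCs as a whole it was at least 10.5-fold higher than in GMPs (adjusted p of the fit 0.00121, edgeR). For EMCN- LT-HSCs alone, with 6 counts, the call against GMPs (adjusted p = 0.0308, edgeR) was lost with mouse as a block (adjusted p = 0.0584), with limma-voom (0.187) and without EMCN- 2 (0.134) or EMCN- 4 (0.0617). Each of GMP 1, 2 and 4, when left out, also took it just over the threshold (adjusted p from 0.0501 to 0.0546). The other calls of EMCN- LT-HSCs against GMPs that hung on 1 library were those of Hoxa6 (adjusted p = 0.0667 without EMCN- 1), Hoxa7 (0.0589 without EMCN- 2) and Hoxb4 (0.109 without EMCN- 4). For EMCN+ LT-HSCs they were those of Hoxa4 (adjusted p = 0.0757 without EMCN+ 4 and 0.0537 without GMP 2) and Hoxa6 (0.0502 without GMP 1 and 0.0521 without GMP 2).

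The comparison of the LT-HSC fractions asked whether Hox expression differs with endomucin. None of the 15 tested genes passed in either direction, while 1.96% of all genes were called in this comparison, 0.771% higher and 1.19% lower in EMCN+ LT-HSCs (edgeR quasi-likelihood test). At an unadjusted p under 0.05 there were 3 (Hoxa7, Hoxa10 and Hoxc6), all higher in EMCN+ LT-HSCs, against 13.9% of all genes, and DESeq2 and limma-voom each called 1 gene, Hoxa10. The fitted difference was above 0 for 13 of the 15, against 50.0% of all genes, with a median of 0.54 on the log2 scale against 0.00. In 6 of the 15 (Hoxa3, Hoxa7, Hoxa10, Hoxb6, Hoxb8 and Hoxc6) every EMCN+ library was above every EMCN- library, against 7.19% of all genes, and none had the reverse, which 7.03% of all genes had. Hoxb6, Hoxb8 and Hoxc6 had 114, 54 and 73 counts in EMCN+ LT-HSCs, 21, 9 and 6 in EMCN- LT-HSCs and none in GMPs. They could pass the filter by their EMCN+ level alone, so these counts of genes by direction are descriptions.

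**Figure D4:**
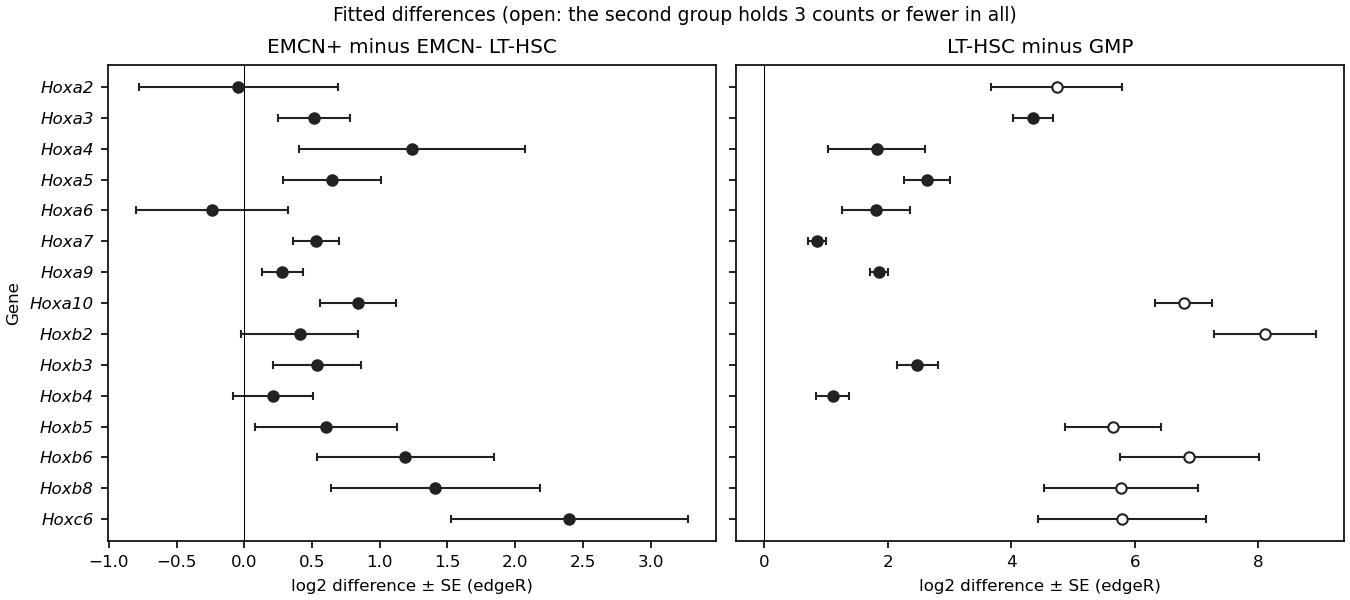
Fitted log2 differences with standard errors for the 15 tested Hox genes, EMCN+ minus EMCN- LT-HSCs (left) and LT-HSCs minus GMPs (right). Open symbols, which occur on the right only, mark genes with 3 or fewer counts over all GMP libraries together. Their fitted differences from GMPs depend on the model and are no bounds. On the left all symbols are filled. On the left 13 symbols lie above 0 and none passed the test, and on the right all lie above 0, from 0.86 for Hoxa7 to 8.11 for Hoxb2.

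Hoxa10 had the clearest separation of the fractions among the well-counted genes. The lowest EMCN+ library (17.3 CPM) was above the highest EMCN- library (13.8 CPM), and EMCN+ exceeded EMCN- in each of the 3 mice with both. The log2 difference was 0.84 ± 0.28 with an adjusted p of 0.148 in edgeR, and it passed in 6 of 24 alternatives, with adjusted p from 0.0170 to 0.386 over all of them. One of these was the fit of the 6 libraries from mice with both fractions and mouse as a block (adjusted p = 0.0170), while the block in all 11 libraries gave no call. As a ratio to Hoxa9 per kb, Hoxa10 stood at 0.719 ± 0.148 in EMCN+ and 0.50 ± 0.131 in EMCN- LT-HSCs, with overlapping libraries.

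Hoxa7 differed by 0.53 ± 0.17 on the log2 scale (adjusted p = 0.137, edgeR, 95% interval 0.19 to 0.87) and was also higher in EMCN+ LT-HSCs in 3 of 3 mice. Hoxa9 differed by 0.28 ± 0.15 (adjusted p = 0.436, edgeR), with an interval of -0.02 to 0.58, and was higher in 2 of 3 mice. Hoxb4 had 0.21 ± 0.29 (adjusted p = 0.824, edgeR, interval -0.36 to 0.78), so a difference of the size found for Hoxa7 lay within its interval. Hoxa6 and Hoxa2 were the genes with a fitted value under 0, at -0.24 ± 0.56 and -0.04 ± 0.74, and their intervals, -1.34 to 0.86 and -1.48 to 1.40, reached well to both sides.

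The most scattered values were those of low genes. Hoxc6 differed by 2.40 ± 0.88 (adjusted p = 0.202, edgeR), with 73 counts in EMCN+ and 6 in EMCN- LT-HSCs. Hoxb8 and Hoxb6 had 1.41 ± 0.77 and 1.19 ± 0.65 (adjusted p = 0.443 and 0.444, edgeR), with separate groups in each. Hoxa4, at 1.24 ± 0.83 (adjusted p = 0.553, edgeR), had overlapping groups. Hoxa3, Hoxa5, Hoxb2, Hoxb3 and Hoxb5 lay between 0.41 and 0.65, with adjusted p from 0.402 to 0.749 in edgeR.

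Counts of the untested Hoxb and Hoxc genes lay mainly in EMCN+ LT-HSCs. Hoxb9 was at 0.494, 0.417, 2.00 and 1.56 CPM in EMCN+ LT-HSCs and at 0, 0.161 and 0.234 CPM in EMCN- LT-HSCs, a ratio of 8.16 with an exact 95% counting interval of 2.10 to 69.8. Hoxb7 had 2, 5, 4 and 6 counts in EMCN+ libraries 1 to 4 and none in EMCN- LT-HSCs, which makes it at least 2.50-fold higher in EMCN+ LT-HSCs against 3 counts over the EMCN- group. Hoxc4 had 4, 1, 6 and 4 counts and none, at least 2.20-fold higher. Without the low-count filter their fitted differences did not pass (adjusted p = 0.390 for Hoxb9, 0.354 for Hoxb7 and 0.407 for Hoxc4, edgeR). Summed over its 9 genes, the Hoxc cluster was at 2.85 to 4.15 CPM in EMCN+ LT-HSCs, 0.152 to 0.644 CPM in EMCN- LT-HSCs and 0 to 0.227 CPM in GMPs, without overlap between the fractions. The 12 counts of Hoxc10 and 13 of Hoxc5 in EMCN+ LT-HSCs came mostly from 1 library each, 9 from EMCN+ 1 and 11 from EMCN+ 2. These 2 genes share exonic bases on the same strand.

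Markers of other cell types moved with the groups as well. Endothelial markers summed to 273 to 365, 173 to 200 and 67.8 to 83.8 CPM over 10 genes in EMCN+ LT-HSCs, EMCN- LT-HSCs and GMPs. The 10 include Emcn, whose protein was used to sort the fractions. Of the 7 tested, 1 was higher in EMCN+ than EMCN- LT-HSCs (0.771% of all genes were), namely Vwf, which LT-HSCs are known to express, and 6 were higher and 1 lower in LT-HSCs than GMPs (32.5% and 29.9% of all genes). The endothelial genes Cdh5 and Cldn5 were at 0.803 ± 0.185 and 1.31 ± 0.711 CPM in EMCN+ LT-HSCs, at 0.180 ± 0.160 and 0 CPM in EMCN- LT-HSCs, and at 0 in GMPs. Plvap and Pecam1 ran the other way, Plvap at 0.181 ± 0.219, 0.505 ± 0.541 and 1.03 ± 0.648 CPM and Pecam1 at 45.8 ± 3.83, 48.0 ± 5.12 and 60.8 ± 7.25 CPM (log2 difference of LT-HSCs from GMPs -0.38 ± 0.10, adjusted p = 0.00274, edgeR).

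Erythroid markers summed to 20.6 to 21.4, 18.5 to 23.9 and 25.7 to 126 CPM in the same order, and 2 of 9 tested were lower in EMCN+ than EMCN- LT-HSCs (1.19% of all genes were), Gata1 at -2.11 ± 0.51 and Car1, without a count in EMCN+ LT-HSCs (adjusted p = 0.0374 and 0.0387, edgeR). Hbb-bt, the largest part of the EMCN+ sum, was at 14.7 ± 2.39 and 5.80 ± 0.574 CPM in the fractions and did not pass. Megakaryocyte markers summed to 225 to 254, 200 to 243 and 11.6 to 24.4 CPM, and 2 of 5 tested were lower in EMCN+ LT-HSCs, Pf4 at -2.38 ± 0.38 and Itga2b at -1.53 ± 0.26 (adjusted p = 0.00237 and 0.0101, edgeR). Lymphoid markers summed to 9.73 to 14.3, 11.8 to 19.2 and 152 to 165 CPM, with 1 of 2 tested, Nkg7, lower in EMCN+ LT-HSCs. Mature myeloid markers, at 13.05 to 25.03, 12.6 to 20.9 and 240 to 633 CPM, and stromal markers, at 16.6 to 36.6, 18.5 to 26.2 and 17.7 to 28.7 CPM, had none called between the fractions. Against GMPs, LT-HSCs had 1 erythroid marker higher and 6 lower, 5 of 5 megakaryocyte markers higher, 2 of 2 lymphoid and 9 of 9 mature myeloid markers lower, and of 4 stromal markers 1 higher and 1 lower. The part of these genes' source cells in the Hox values was not tested.

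HOX proteins bind DNA with TALE homeodomain partners of the PBX and MEIS families. Of 9 such genes 8 were tested, and 6 were higher and none lower in LT-HSCs than in GMPs, against 32.5% and 29.9% of all genes, with a median log2 difference of 2.64 against 0.03. Meis1 fell from 346 ± 34.7 and 343 ± 45.4 CPM in EMCN+ and EMCN- LT-HSCs to 26.2 ± 4.43 CPM in GMPs (log2 difference 3.72 ± 0.13, adjusted p = 2.07e-15, edgeR). Pbx2 and Pbx3 differed by 1.00 ± 0.14 and 1.75 ± 0.25 (adjusted p = 2.19e-06 and 3.72e-06, edgeR). Between the fractions no partner passed (median 0.09), and the 2 with the smallest p were Meis3 at 2.15 ± 0.81 (adjusted p = 0.218, edgeR) and Meis2 at 1.47 ± 0.84 (0.465), both without a count in GMPs.

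Among 19 genes of complexes known to activate Hox genes, 16 were tested, and 7 were higher and 5 lower in LT-HSCs than in GMPs (median log2 difference 0.08), near the 32.5% and 29.9% of all genes. Mllt3, a partner of the methyltransferase KMT2A in leukaemic fusions, was higher by 3.62 ± 0.13, Kmt2a by 1.67 ± 0.11 and the acetyltransferase gene Kat6a by 1.08 ± 0.09 on the log2 scale, while Dpy30, a shared subunit of the KMT2 complexes, was at -2.45 ± 0.11 (adjusted p of these 4 at most 2.19e-09, edgeR). Between the fractions Mllt3 was the 1 gene of this list that passed, at 0.82 ± 0.13 higher in EMCN+ LT-HSCs (adjusted p = 0.00217, edgeR), against 0.771% of all genes called higher. Cdx1, Cdx2 and Cdx4, activators of Hox genes in the embryo, had at most 4 counts in a group and were not tested.

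Of 20 Polycomb genes, whose products keep Hox genes silent, 9 were higher and 4 lower in LT-HSCs than in GMPs (median log2 difference 0.21), a total near the 62.5% of all genes called. Phc1 was higher by 2.20 ± 0.14 and Ezh1 by 1.13 ± 0.14 on the log2 scale, and Ezh2 and Rbbp4 stood at -1.05 ± 0.09 and -1.05 ± 0.08 (adjusted p of these 4 at most 3.72e-07, edgeR). The 2 alternative methyltransferases of the complex differed between the fractions too, Ezh1 by 0.81 ± 0.16 (adjusted p = 0.00881) and Ezh2 by -0.55 ± 0.12 (adjusted p = 0.0144, edgeR). All other Polycomb genes missed the threshold in that comparison.

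Of 12 genes reported as targets of HOXA9 and MEIS1, 8 were higher and 3 lower in LT-HSCs than in GMPs (median log2 difference 1.5), against 32.5% and 29.9% of all genes. Erg, Camk2d, Lmo2 and Sox4, the 4 with the smallest p, were higher by 2.24 ± 0.10, 2.61 ± 0.15, 1.61 ± 0.09 and 1.39 ± 0.11 on the log2 scale (adjusted p at most 9.79e-10, edgeR). Between the fractions Cd34 passed, at -0.60 ± 0.12 (adjusted p = 0.00863, edgeR), lower in EMCN+ LT-HSCs, and none passed in the other direction. Cd34 is a surface antigen that is lower on adult mouse LT-HSCs than on their progeny.

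The genes beside the clusters did not share one direction. Of the 16 nearest protein-coding neighbours, 2 on each side of a cluster, 11 were tested, and 1 was higher and 5 lower in LT-HSCs than in GMPs (median log2 difference -0.21), a total near the 62.5% of all genes called. Calcoco1 beside Hoxc was higher by 2.25 ± 0.15 (adjusted p = 4.07e-11, edgeR), and Lnpk and Mtx2, on either side of Hoxd, and Atp5g2 near Hoxc were at -1.15 ± 0.16, -0.84 ± 0.16 and -1.41 ± 0.38. No neighbour passed between the fractions, where Calcoco1 (0.49, adjusted p = 0.123, edgeR) and Atp5g2 (-0.91, adjusted p = 0.429) had the smallest p. Evx1, the homeobox gene at the posterior end of Hoxa, was at 0 in every library. Of 16 noncoding genes of the clusters 15 were in the table and Hoxb3os alone was tested.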

How the data were processed

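Each LT-HSC library came from 3000 to 5000 sorted cells and a stranded total RNA kit (SMARTer pico V2), per the labels' protocols. The labels also name the molecule as polyA RNA, although the kit is for total RNA. The authors deposited estimated counts per gene as whole numbers, and cutadapt and Salmon are named in the submitters' processing notes. Versions, build, annotation and strand setting are not given in the sources used here. GENCODE M21 on GRCm38 gave positions and lengths (54094 of 54347 identifiers matched).

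filterByExpr (minimum count 10, by group) left 14915 genes. The estimated counts, rounded, of all 11 libraries were fitted with edgeR 4.0.16 in R 4.3.3 (TMM, robust quasi-likelihood, no block, Benjamini-Hochberg). The LT-HSC mean weights 7 libraries equally. Fitted differences carry the SE, other values the SD. Without molecular identifiers, intervals and the limits for 0 counts cover counting error alone. The test between the fractions was checked on simulated data. It recovered 12.3% of 1.5-fold, 56.9% of 2-fold and 76.2% of 4-fold changes, and 2.1% of its calls were false. These rates come from a single draw, with changed genes picked at random over all levels, so they are not rates for genes at Hox levels. Apart from the changes, each gene had the same mean in all groups, taken over all 11 libraries, so differences from GMPs were absent. A gene that was not called between the fractions may therefore still differ. Alternatives included DESeq2 1.42.0 and limma 3.58.1.

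The labels give the mouse of each library, which pairs samples: deviations of same-mouse LT-HSC pairs correlated at 0.198 on average (0.165 to 0.223, 3 pairs) and those of 9 other pairs at -0.0657 (-0.246 to 0.190). Deviations were taken from group means, which ties these averages to each other. Pairs of an LT-HSC and a GMP library correlated at 0.0713 within a mouse (-0.0606 to 0.150, 7 pairs) and at -0.0237 between mice (-0.172 to 0.160, 21 pairs). Members and lists were chosen with earlier results of these data known. Tested Hox genes are given in every library. Of other lists up to 4 called genes with the smallest p, or 2 where none was called, are named per comparison. Emcn, Cdh5, Cldn5, Plvap, Pecam1, Hbb-bt, Evx1 and the Cdx genes were named outside this rule. The values of some single genes are not reported here.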

Additional observations from a re-analysis of the deposited data

How the results depend on the processing

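Between the fractions the count of Hox genes called higher in EMCN+ LT-HSCs was 1, Hoxa10, in place of 0 with no low-count filter, with DESeq2, with limma-voom, with protein-coding genes alone, with the 7 LT-HSC libraries alone and with the 6 paired LT-HSC libraries and the replicate block (adjusted p = 0.0331, 0.0210, 0.0486, 0.0472, 0.0273 and 0.0170). It was 0 in every fit that left out 1 library. Against GMPs the counts called higher were 8 of 8 tested in each of EMCN+, EMCN- and all LT-HSCs with a filter at 5 CPM in 3 libraries, and 9 of 10 tested in EMCN+ LT-HSCs with libraries thinned to the smallest total, an alternative chosen after seeing the data. Both tested fewer genes. With 1 library left out they ranged from 13 to 16 for EMCN+, 12 to 14 for EMCN- and 13 to 16 for all LT-HSCs. No Hox gene was called lower in any of these fits. The replicate block in 11 libraries changed no call but that of Hoxc6 in EMCN- LT-HSCs against GMPs. The call of Hoxa10 in the 6 paired libraries was also made without a block in the 7 LT-HSC libraries.

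Between the fractions the sign of Hoxa2 changed to 0.078 with total-count scaling, 0.64 with limma-voom, 0.27 with the replicate block, 0.20 with the block in 6 libraries, and lay between -0.57 and 0.49 with 1 library left out. That of Hoxa6 lay between -0.42 and 0.085 with 1 library left out. The cause was not tested, and neither gene passed. Total-count scaling moved the median log2 difference of all genes to 0.11 between the fractions, 0.86 for EMCN+ and 0.75 for EMCN- LT-HSCs against GMPs, and upper-quartile factors to 0.17 and 0.14 against GMPs. With exon-union lengths 5 of the 15 levels per kb moved by more than their SD. Depth limits the Hoxd genes and the Hoxc genes other than Hoxc6, which lay near or under the 3-count level of single libraries.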
